A study of Mus musculus with 4 samples.

Results

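The comparison was between oocytes early and later in their growth, GO1 and GO2, over every reference gene with an RPKM (a read count divided by exon length in kilobases and by the library's total) of at least 1 in either library. Of 25587 genes listed, 9793 (38.3 %) met this rule, 9164 of them in both libraries, 212 in GO1 only and 417 in GO2 only. GO1 was a library of growing oocytes of 25 to 70 μm from mice aged 8 to 14 days post-partum, and GO2 a library of growing oocytes of 50 to 70 μm from mice aged 15 days. Non-growing oocytes (NGOs, 5 days, 10 to 40 μm) and fully grown oocytes (FGOs, 20 days, over 70 μm) gave a library each and were used only as a second look at the genes called. All oocytes came from wild-type C57BL/6 (C57BL/6Babr) mice and were pooled, so that a library was an average over many cells. Total RNA was depleted of ribosomal RNA in every library, and the GO1 and GO2 libraries were both made with the ScriptSeq v2 kit, whereas the NGO and FGO libraries were made by the dUTP method. There was 1 library per stage, so no value had a replicate check and no p value was computed. The interval given with a level covers counting error at most. The size ranges of GO1 and GO2 overlapped, and age, size and collection cannot be told apart.

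A mouse oocyte spends its growth phase inside a follicle, surrounded by granulosa cells, with its chromosomes arrested in the dictyate stage of the first meiotic prophase. Over this phase it transcribes and stores the RNA and protein that the egg and the early embryo will use, multiplies its mitochondria and builds the zona pellucida. Transcription factors that start the programme in the primordial follicle, such as SOHLH1, are known to act early, and the proteins that paired the chromosomes in the fetal ovary are no longer needed. DNA methylation is laid down on the oocyte genome during the same growth, mainly over transcribed gene bodies.

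The GO2 library was deeper than GO1. The totals by which the RPKM values had been divided were 126796743 for GO1 and 241385711 for GO2, of which 75953047 (59.9 %) and 141354485 (58.6 %) reads lay on listed genes. A gene with 1 kbp of exons reached the floor of 3 reads at 0.0237 RPKM in GO1 and at 0.0124 RPKM in GO2. All 12 oocyte markers were above 1 RPKM in these libraries, with summed levels of 5.12e+03 RPKM in GO1 and 4.77e+03 RPKM in GO2. Of 11 granulosa cell markers, 7 were under 0.1 RPKM in both libraries, among them the granulosa transcription factor Foxl2 (0.00313 and 0.0115 RPKM) and the hormone gene Amh (0.0284 and 0.0199 RPKM), while the sum of the list was 2.54 RPKM in GO1 and 5.11 RPKM in GO2. The granulosa sum came mostly from Cyp19a1 and Kitl in both libraries, and the part of granulosa cells in any value below was not tested.

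Most genes stood at nearly the same level in early and later growing oocytes. The change, log2 of GO2 over GO1 on the RPKM + 0.1 scale after centring by 0.0176, had a median of 0.001, with 5th and 95th percentiles of -0.583 and 0.663. It was within 1.5-fold for 8654 genes (88.4 %). At 2-fold, 181 genes (1.85 % of those compared) were higher in GO2 and 81 genes (0.827 %) were higher in GO1. Each count of called list members below is to be read beside these shares. At 4-fold, 24 were higher in GO2 and 3 in GO1, and the counting interval of the read ratio left out equality for all 181 and 81 genes called. That interval takes the reads as independent and is likely too narrow, since a read pair was probably counted more than once. The cut-off fell within a continuous run of values: Ehf (0.99) and Cd226 (0.99) lay just inside 2-fold and Slc25a13 (1.004) just beyond it, and in the other direction Gm11851 (-0.998) lay just inside and Cox4i2 (-1.01) just beyond.

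The genes in the 2 directions differed in level. Genes higher in GO2 were scarce, with a median of 0.766 RPKM in GO1 and 2.24 RPKM in GO2, and 110 of the 181 were under 1 RPKM in GO1, so that they entered the comparison through GO2 alone. Genes higher in GO1 had medians of 4.44 RPKM in GO1 and 1.93 RPKM in GO2, 32 of 81 were at 10 RPKM or more in GO1, and 22 entered through GO1 alone. All genes compared had medians of 5.81 and 5.92 RPKM. The genes higher in GO2 made up 0.241 % of the summed RPKM in GO1 and 0.625 % in GO2, whereas those higher in GO1 made up 3.83 % and 1.41 %.

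**Figure D1:**
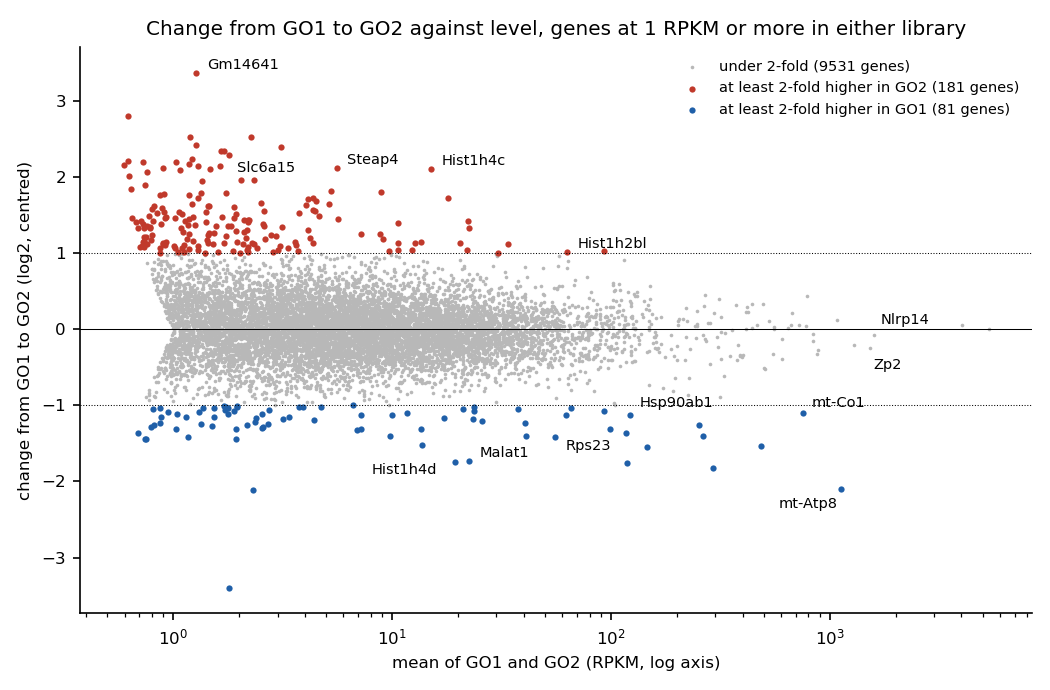
Change from GO1 to GO2 (log2 of GO2 over GO1, centred) against the mean RPKM of the 2 libraries on a log axis, with 1 point for each of the 9793 genes; dotted lines mark 2-fold. The 181 genes higher in GO2 (red) gather at low RPKM, while the 81 genes higher in GO1 (blue) reach up to the mitochondrially encoded mt-Atp8.

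The most abundant RNAs of the growing oocyte changed little. Gm16211 had the highest level of all, 5296 RPKM in GO1 and 5372 RPKM in GO2, followed by Hexdc, a hexosaminidase gene, with 3936 RPKM in GO1 and 4138 RPKM in GO2. The other genes at the top were mostly known oocyte genes: Zp2, a zona pellucida glycoprotein (1643 and 1403 RPKM), Nlrp14 (1623 and 1562 RPKM), Padi6, a component of the oocyte's cytoplasmic lattices (1371 and 1207 RPKM), Dppa3 (959.9 and 807 RPKM), the maintenance methyltransferase gene Dnmt1 (848 and 824 RPKM) and the nucleoplasmin Npm2 (874 and 799 RPKM). None of these was past 1.5-fold. Of the 10 highest genes of GO1, 2 were past 2-fold, and both were mitochondrial, mt-Atp8 and mt-Co1.

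Mitochondrially encoded RNAs had the largest shift of any list compared, and it was downward. The mitochondrial genome codes for 13 subunits of the respiratory chain and ATP synthase, and all 13 genes were compared. At 2-fold 11 were higher in GO1, against 0.827 % of all genes compared, and none was higher in GO2. The median change was -1.25, against 0.001 over all genes, and the summed level was 6155 RPKM in GO1 and 2478 RPKM in GO2. Their share of the reads on genes was 0.799 % in GO1 and 0.355 % in GO2.

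The subunits of ATP synthase were among the largest falls. mt-Atp8 was at 1821 RPKM in GO1 and 429 RPKM in GO2 (95 % counting intervals 1804 to 1837 and 424 to 435), a log2 change of -2.102. mt-Atp6 was at 718 RPKM in GO1 and 250.4 RPKM in GO2 (-1.54). The 2 genes overlap on the mitochondrial genome (7766 to 7969 and 7927 to 8607, plus strand) and so share reads. Cytochrome b of complex III, mt-Cytb, was at 457 RPKM in GO1 and 131 RPKM in GO2 (-1.82).

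Complex I and complex IV genes were lower too, with a wider range. mt-Nd4 (217 and 75.4 RPKM), mt-Nd2 (169 and 66.4 RPKM) and mt-Nd1 (355 and 151 RPKM) of complex I, and mt-Co2 (379 and 146 RPKM) and mt-Co1 (1026 and 483 RPKM) of complex IV, were each past 2-fold. mt-Nd6, whose gene lies on the other strand, was at 50.6 RPKM in GO1 and 24.7 RPKM in GO2 (-1.05). The 2 genes not past 2-fold were mt-Co3, at 585 RPKM in GO1 and 415 RPKM in GO2 (-0.51), and mt-Nd3, at 286 RPKM in GO1 and 261 RPKM in GO2 (-0.15). The fall was thus unequal along the genome, from 0.15 to 2.10 on the log2 scale.

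Nuclear genes for the same respiratory complexes were not shifted to this extent. Of 79 nuclear oxidative phosphorylation subunits compared, 2 were at least 2-fold higher in GO1 and none in GO2, against 0.827 % and 1.85 % of all genes, 31 lay above 0, and the median change was -0.06. Cox5b, a subunit of complex IV (chromosome 1, 36691487 to 36693385), was at 141 RPKM in GO1 and 57.4 RPKM in GO2 (-1.32), and Cox4i2, an alternative complex IV subunit, at 2.302 RPKM in GO1 and 1.11 RPKM in GO2 (-1.01). At the other end Cox6a2 had a change of 0.85 and Ndufa2 of 0.81, both short of 2-fold. The 73 mitochondrial ribosomal proteins compared had a median of 0.11 with none past 2-fold, the 27 tricarboxylic acid cycle genes a median of -0.01, and the 35 mitochondrial import genes a median of 0.02. RPKM is a share of a library and gives no amount per oocyte. In bulk libraries, fewer mitochondria or transcripts per cell, more of the other RNA per cell and a different mix of cells cannot be told apart.

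**Figure D2:**
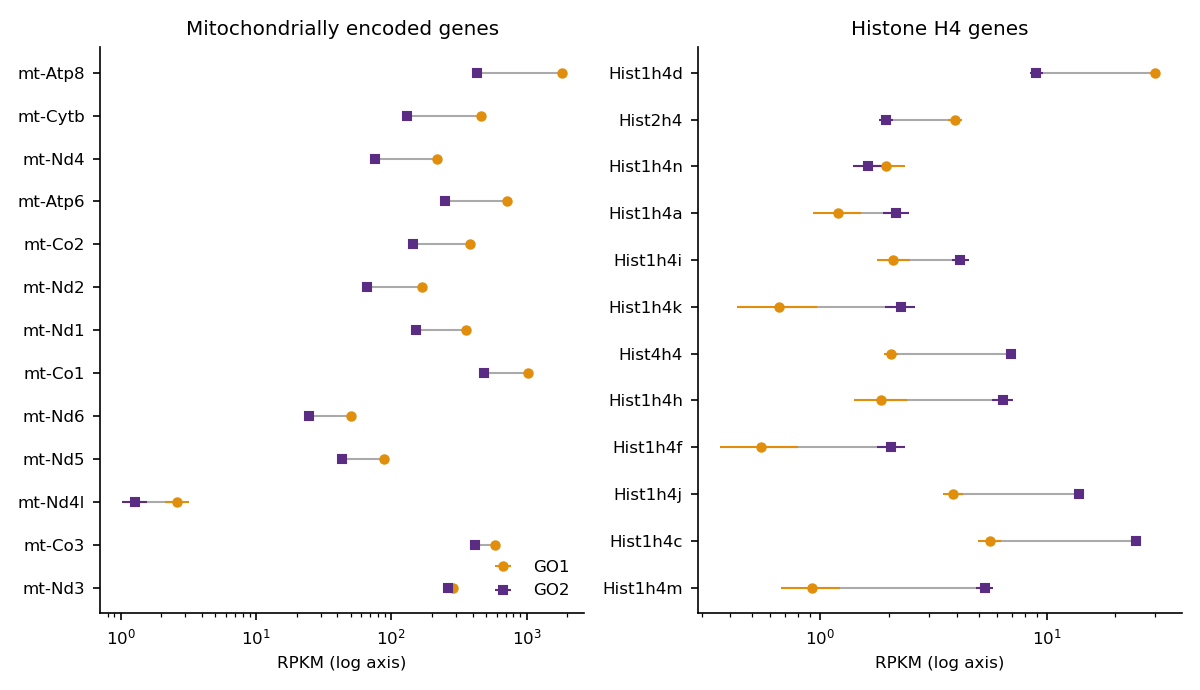
Level in GO1 (orange circles) and GO2 (purple squares) of the 13 mitochondrially encoded genes and of 12 histone H4 genes, in RPKM on a log axis, with 95 % counting intervals (1 library each). All 13 mitochondrial genes were lower in GO2, mt-Co3 and mt-Nd3 by under 2-fold, whereas 7 H4 genes were at least 2-fold higher and Hist1h4d at least 2-fold lower.

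The clustered replication-dependent histone genes were called mostly in the other direction. These genes, mostly in a cluster on chromosome 13, code for the core histones and the linker H1, and their RNAs end in a stem-loop in place of a poly(A) tail. Of 68 listed genes, 44 were compared, 12 were at least 2-fold higher in GO2 and 2 in GO1, against 1.85 % and 0.827 % of all genes, and the median change was 0.41. The summed level was 862.8 RPKM in GO1 and 1118 RPKM in GO2. Grouped by protein after the values were seen, 7 of 12 H4 genes, 4 of 13 H2B genes and 1 of 5 H3 genes were higher in GO2, and none of 10 H2A and 4 H1 genes. The median changes were 1.66 for H4, 0.73 for H3, 0.58 for H2B, 0.07 for H2A and -0.24 for H1.

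Among H4 genes the largest difference was that of Hist1h4m (chromosome 13, 21811746 to 21812150, plus strand), with 0.915 RPKM in GO1 and 5.31 RPKM in GO2 (95 % counting intervals 0.672 to 1.22 and 4.86 to 5.79), a log2 change of 2.396. Hist1h4c (chromosome 13, 23698060 to 23698454, minus strand) was at 5.59 RPKM in GO1 and 24.6 RPKM in GO2 (2.101), and Hist1h4j at 3.86 RPKM in GO1 and 13.9 RPKM in GO2 (1.800). Hist1h4f (1.72), Hist1h4h (1.71), Hist4h4 (1.69) and Hist1h4k (1.62) were also higher in GO2, and Hist1h4i (0.93) and Hist1h4a (0.79) fell short of 2-fold. Against this run stood Hist1h4d (chromosome 13, 23581598 to 23581990, plus strand), the most abundant H4 gene in GO1, at 29.9 RPKM in GO1 and 8.98 RPKM in GO2 (95 % counting intervals 28.4 to 31.5 and 8.39 to 9.61), a change of -1.74. Hist2h4, at 3.92 RPKM in GO1 and 1.95 RPKM in GO2, had a change of -0.99. The family's summed level was 55.14 RPKM in GO1 and 81.03 RPKM in GO2, a smaller shift than that of most members. The coding regions of H4 genes are nearly identical, and reads may have been divided between copies by the mapping, which kept 1 position per read.

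The promoters of 3 H4 genes that moved apart are shown, from 250 bases before to 50 bases after the transcription start (RefSeq, GRCm38.p6). Capitals mark the TATA box, spelled TATAAA, and the boxes for CCAAT and for GC found on either strand. They lie at chr13:21811496-21811795, plus strand, for Hist1h4m, at chr13:23698409-23698708, minus strand, for Hist1h4c, and at chr13:23581318-23581617, plus strand, for Hist1h4d. Hist1h4c was chosen after its values were seen.
Hist1h4m: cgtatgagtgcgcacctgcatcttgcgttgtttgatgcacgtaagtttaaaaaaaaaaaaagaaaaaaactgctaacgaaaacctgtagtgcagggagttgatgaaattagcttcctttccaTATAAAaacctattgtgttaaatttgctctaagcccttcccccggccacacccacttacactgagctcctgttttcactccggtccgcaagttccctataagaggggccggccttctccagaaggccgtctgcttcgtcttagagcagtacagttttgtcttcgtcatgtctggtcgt
Hist1h4c: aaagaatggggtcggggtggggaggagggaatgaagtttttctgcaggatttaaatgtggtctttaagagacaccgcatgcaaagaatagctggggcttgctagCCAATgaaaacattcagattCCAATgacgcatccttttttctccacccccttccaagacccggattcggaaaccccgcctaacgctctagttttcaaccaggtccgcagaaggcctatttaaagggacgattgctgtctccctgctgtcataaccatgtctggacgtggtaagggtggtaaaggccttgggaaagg
Hist1h4d: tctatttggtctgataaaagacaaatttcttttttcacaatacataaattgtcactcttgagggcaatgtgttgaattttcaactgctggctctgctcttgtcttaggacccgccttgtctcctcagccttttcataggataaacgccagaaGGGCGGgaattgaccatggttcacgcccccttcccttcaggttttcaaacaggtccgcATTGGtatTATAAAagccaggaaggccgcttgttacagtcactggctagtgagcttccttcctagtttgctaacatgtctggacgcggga

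Hist1h4m held a TATA letter match only far from the start, Hist1h4c held 2 CCAAT boxes and no match to the TATA letters, and Hist1h4d held a GC box, a CCAAT box and a TATA box close to the start. Of 11 H4 genes with a promoter in the reference, 8 held the TATA letters, among them Hist1h4d and 4 of the 7 genes higher in GO2. A match is a description of the letters and no site of binding was measured.

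H2B and H3 genes gave the other histone changes. Hist1h2bl was the most abundant of them, at 41.5 RPKM in GO1 and 84.9 RPKM in GO2 (1.01), followed by Hist1h2bk at 12.6 RPKM in GO1 and 32.4 RPKM in GO2 (1.33). Hist3h2ba (2.98 and 8.39 RPKM), Hist1h2bq (0.825 and 2.3003 RPKM) and the H3 gene Hist1h3h (4.19 and 10.3 RPKM) were also at least 2-fold higher in GO2, and Hist1h2bb (2.47 and 1.104 RPKM) was lower. The most abundant clustered histone RNAs hardly differed: Hist1h2aa was at 236 RPKM in GO1 and 296 RPKM in GO2 (0.31), and the linker histone Hist1h1a at 148 RPKM in GO1 and 158 RPKM in GO2 (0.08). Most of these genes have 1 short exon (the 12 H4 genes had a median exon length of 418 bases), and in the NGO and FGO libraries, made by the other method, the summed H4 level was 479.7 and 484.0 RPKM. The part of the library method in the histone levels was not tested.

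In 3 families with members abundant in these oocytes and at least 5 genes compared, every gene compared lay above 0, mostly by less than 2-fold. The 3 Obox homeobox genes compared, too few for a median, also lay above 0. The 7 oogenesin and PRAME-like genes compared all lay above 0, with a median of 0.49 and 1 past 2-fold. Oog1, a gene transcribed in oocytes from early meiosis on, was at 505 RPKM in GO1 and 550.01 RPKM in GO2 (0.105). Its relatives were further apart: Oog2 was at 8.303 RPKM in GO1 and 18.7 RPKM in GO2 (1.15), Oog3 at 78.97 RPKM in GO1 and 151 RPKM in GO2 (0.91), and Oog4 had a change of 0.49. From NGOs to FGOs Oog3 was at 0.848 and 171 RPKM and Oog2 at 0.394 and 15.4 RPKM, a far wider gap than that between GO1 and GO2. The members resemble each other in sequence and may share reads.

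All 6 Tcl1 family genes were above 0, with the highest median of any oocyte family, 0.71, and none past 2-fold. Tcl1, a coactivator of the kinase AKT, was at 129.9 RPKM in GO1 and 159 RPKM in GO2 (0.27), and its tandem relatives were further apart, Tcl1b5 at 5.92 RPKM in GO1 and 11.5 RPKM in GO2 (0.93), Tcl1b2 at 15.5 RPKM in GO1 and 27.3 RPKM in GO2 (0.799) and Tcl1b1 at 24.1 RPKM in GO1 and 41.3 RPKM in GO2 (0.76). The 6 oligoadenylate synthetase genes, a family known for RNA sensing in the interferon response, were all above 0 as well, with a median of 0.51. Oas1f was at 1.41 RPKM in GO1 and 3.81 RPKM in GO2 (1.36), Oas1h at 52.9 RPKM in GO1 and 83.9 RPKM in GO2 (0.65) and the abundant Oas1e at 388 RPKM in GO1 and 462 RPKM in GO2 (0.23). A separate list of interferon response genes had a median of 0.05 over 10 genes with none past 2-fold.

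In the Nlrp, subcortical maternal complex, Khdc and Fbxw lists no gene was past 2-fold. The 12 Nlrp genes had a median of -0.08 and ranged from Nlrp5, part of the subcortical maternal complex, at 680.5 RPKM in GO1 and 528 RPKM in GO2 (-0.38), to Nlrp9c at 23.1 RPKM in GO1 and 32.5 RPKM in GO2 (0.47). The 8 genes compared in the subcortical maternal complex list had a median of -0.20, with 6 below 0. That list also held Ppp1r15b (0.10), 1 of the 2 genes above 0, beside the genes of the complex. The 5 Khdc1 and Khdc3 family genes had a median of -0.34, with 4 below 0. Khdc1b was at 970.5 RPKM in GO1 and 787 RPKM in GO2, and Ooep was at 426 RPKM in GO1 and 325 RPKM in GO2. The 13 Fbxw genes of chromosome 9 had a median of 0.11, 10 of them above 0.

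Zona pellucida genes and oocyte-secreted factors were level across the pair. Zp1 was at 254 RPKM in GO1 and 237 RPKM in GO2 (-0.12), Zp2 had a change of -0.25 and Zp3 was at 616 RPKM in GO1 and 723 RPKM in GO2 (0.21). Gdf9, a growth factor through which the oocyte acts on granulosa cells, was at 765 RPKM in GO1 and 798 RPKM in GO2 (0.04), and its relative Bmp15 at 329 RPKM in GO1 and 416 RPKM in GO2 (0.32). The 6 oocyte-secreted factors compared had a median of 0.06 and none was past 2-fold. Kit, the oocyte receptor for the granulosa ligand, was at 59.9 RPKM in GO1 and 43.1 RPKM in GO2 (-0.49), and the germ cell helicase Ddx4 at 70.9 RPKM in GO1 and 45.5 RPKM in GO2 (-0.66).

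Oocyte transcription factors lay on both sides of 0, with 7 of 20 above it. Sohlh1 (a basic helix-loop-helix factor of primordial and primary follicles) was at 2.35 RPKM in GO1 and 1.09 RPKM in GO2 (95 % counting intervals 2.12 to 2.597 and 0.977 to 1.21), a log2 change of -1.06. It was the only one of 20 oocyte transcription factors compared that was past 2-fold, and the list's median was -0.11. Its partner Sohlh2 was at 3.69 RPKM in GO1 and 2.19 RPKM in GO2 (-0.74), and Figla, the activator of zona genes, at 38.9 RPKM in GO1 and 23.6 RPKM in GO2 (-0.74), both short of 2-fold. In NGOs and FGOs Sohlh1 was at 78.03 and 0.577 RPKM and Figla at 102 and 20.6 RPKM, a wider gap in the same direction for both. Nobox (101 and 114 RPKM) and Foxo3 (0.19) differed little, as did Lhx8 (-0.01), and Gtf2a1l, the germ cell form of a TFIIA subunit, was at 25.2 RPKM in GO1 and 35.6 RPKM in GO2 (0.48).

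RNAs for proteins that pair chromosomes in the fetal ovary were measurable in both libraries, and some were lower in GO2. Of 12 synaptonemal complex and HORMAD genes compared, 2 were at least 2-fold higher in GO1, against 0.827 % of all genes compared, and 9 lay below 0, with a median of -0.13. Sycp1, the transverse filament of the synaptonemal complex, was at 15.9 RPKM in GO1 and 7.46 RPKM in GO2 (-1.099), and Syce1, of the central element, at 3.73 RPKM in GO1 and 1.75 RPKM in GO2 (-1.07). Sycp3, of the axial element, was at 36.7 RPKM in GO1 and 22.9 RPKM in GO2 (-0.698).

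Smc1b, the meiotic form of a cohesin subunit, was at 35.996 RPKM in GO1 and 15.7 RPKM in GO2 (-1.21) and was the only one of 19 cohesin genes past 2-fold. In NGOs it was at 54.5 RPKM and in FGOs at 6.02 RPKM. Atxn10, its neighbour on chromosome 15, was called in the same direction. Prdm9, which marks sites of meiotic recombination, was at 1.01 RPKM in GO1 and 0.541 RPKM in GO2 (-0.802), and none of 18 meiotic recombination genes was past 2-fold.

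Genes for the resumption of meiosis differed by less than 2-fold. The 26 genes of the CDK1, cyclin B and MOS group had a median of 0.17, 16 of them above 0 and none past 2-fold. Mos, the kinase that holds the egg in metaphase, was at 53.9 RPKM in GO1 and 81.5 RPKM in GO2 (0.58), and Ccnb1, cyclin B1, at 91.6 RPKM in GO1 and 113 RPKM in GO2 (0.29). The 28 spindle checkpoint genes had a median of -0.01 and the 16 anaphase promoting complex genes a median of -0.01. Ube2c, the ubiquitin-conjugating enzyme that serves that complex, was at 28.6 RPKM in GO1 and 13.9 RPKM in GO2 (-1.05), lower by more than 2-fold.

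**Figure D3:**
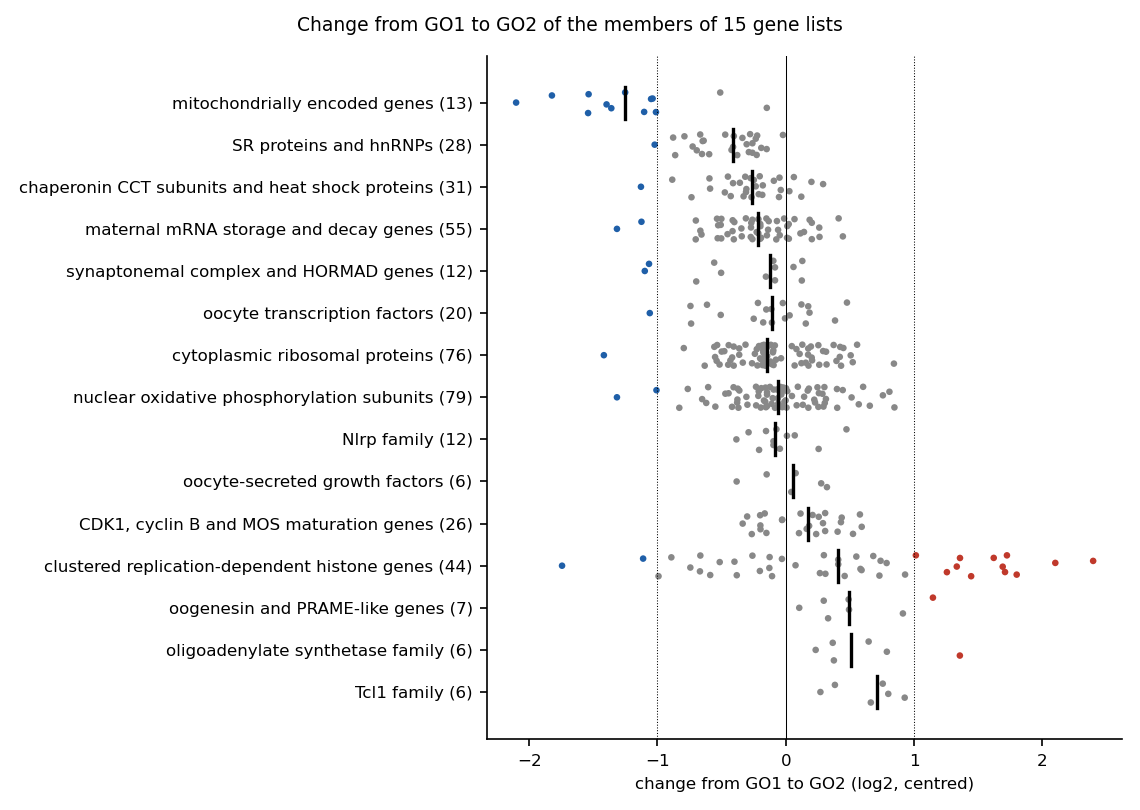
Change from GO1 to GO2 (log2, centred) of each member of 15 gene lists, with the number compared in brackets; bars mark the medians, dotted lines 2-fold, red and blue points genes at least 2-fold higher in GO2 and in GO1. Mitochondrially encoded genes (median -1.25) and Tcl1 genes (0.71) mark the ends of the order, and all 28 SR proteins and hnRNPs lie below 0.

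All 28 SR proteins and hnRNPs compared, which bind nascent RNA and guide splicing, lay below 0, with a median of -0.41, and 1 was past 2-fold. The 18 Hnrnp genes had a median of -0.37 and the 10 Srsf genes a median of -0.45. Hnrnpa2b1 was at 31.8 RPKM in GO1 and 15.8 RPKM in GO2 (-1.02), Hnrnph1 at 23.5 RPKM in GO1 and 12.9 RPKM in GO2 (-0.88) and Hnrnpa1 at 56.3 RPKM in GO1 and 34.4 RPKM in GO2 (-0.73), whereas Hnrnpk, at 61.5 and 61.3 RPKM, hardly differed. The 51 spliceosome proteins compared had a median of -0.07. Several hnRNP and ribosomal protein genes have processed pseudogenes that can take reads from them.

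Malat1, a long nuclear RNA of splicing speckles (chromosome 19, 5795690 to 5802671, minus strand), had among the largest falls of any gene outside the mitochondria. It was at 34.6 RPKM in GO1 and 10.5 RPKM in GO2 (95 % counting intervals 34.2 to 34.99 and 10.3 to 10.6), with 30636 and 17685 reads behind the values, a log2 change of -1.73. In NGOs and FGOs it was at 33.5 and 7.87 RPKM. It overlaps another listed gene. Its promoter is shown because it was among the largest falls with an entry in RefSeq (GRCm38.p6, chr19:5802623-5802922, minus strand). None of the motifs searched was found in this window, so no letter is in capitals.
Malat1: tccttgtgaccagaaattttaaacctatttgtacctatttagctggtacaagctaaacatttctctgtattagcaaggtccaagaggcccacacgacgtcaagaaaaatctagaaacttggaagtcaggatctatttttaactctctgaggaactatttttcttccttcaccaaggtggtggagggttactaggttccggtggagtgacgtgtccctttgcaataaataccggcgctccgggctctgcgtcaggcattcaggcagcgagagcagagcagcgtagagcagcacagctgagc

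Genes that store and turn over maternal mRNA lay below 0 more often than above. Of 55 compared, 41 lay below 0, with a median of -0.21, and 2 were at least 2-fold higher in GO1, against 0.827 % of all genes compared. Cpeb2, of the family that binds the cytoplasmic polyadenylation element, was at 2.79 RPKM in GO1 and 1.07 RPKM in GO2 (-1.32). Zfp36l2, which binds AU-rich elements and is known for its part in oocyte maturation, was at 9.89 RPKM in GO1 and 4.53 RPKM in GO2 (-1.13). Zar1, which binds maternal mRNAs in the oocyte, went the other way without reaching 2-fold, at 227 RPKM in GO1 and 313 RPKM in GO2 (0.44). Of 23 piRNA pathway genes 1 was past 2-fold, Piwil1, the PIWI protein of male germ cells, at 0.5999 RPKM in GO1 and 1.73 RPKM in GO2 (1.37).

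Chaperone and actin cytoskeleton genes mostly lay below 0, and few were past 2-fold. Of 31 chaperonin and heat shock genes compared, 26 lay below 0, with a median of -0.27, and 1 was past 2-fold. Hsp90ab1, a constitutive HSP90, was at 166 RPKM in GO1 and 76.98 RPKM in GO2 (-1.13), Hsp90aa1 at 409 RPKM in GO1 and 224 RPKM in GO2 (-0.88) and the HSP90 of the endoplasmic reticulum, Hsp90b1, at 185 RPKM in GO1 and 112 RPKM in GO2 (-0.74). Of 40 actin nucleation and cortex genes 33 lay below 0, with a median of -0.20, and 1 was past 2-fold in each direction. Actg1, cytoplasmic gamma actin, was at 85.3 RPKM in GO1 and 39.4 RPKM in GO2 (-1.13) and Actb at 49.7 RPKM in GO1 and 31.1 RPKM in GO2 (-0.69). In this list Spire2, an actin nucleator with a known part in polar body extrusion, was alone past 2-fold in the other direction, at 1.44 RPKM in GO1 and 3.27 RPKM in GO2 (1.12).

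The translation machinery was mixed. The 76 cytoplasmic ribosomal protein genes compared had a median of -0.15, with 28 above 0 and 1 past 2-fold. Rps23 was at 80.9 RPKM in GO1 and 30.6 RPKM in GO2 (-1.42) and Rps26 at 83.1 RPKM in GO1 and 48.4 RPKM in GO2 (-0.79), whereas Rps12 was at 84.6 RPKM in GO1 and 122 RPKM in GO2 (0.51). From NGOs to FGOs the same list had a median of -0.72. Ncl, nucleolin, was at 39.1 RPKM in GO1 and 20.4 RPKM in GO2 (-0.95). Eif6, which keeps ribosomal subunits apart, was at 7.96 RPKM in GO1 and 16.7 RPKM in GO2 (1.04), the only one of 53 initiation factors past 2-fold. The 43 proteasome subunits compared had a median of -0.03 with none past 2-fold.

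DNA methylation is being laid down at this age. The 8 genes of the DNA methyltransferase and UHRF list, which also held Zfp57 and Trim28, had a median of 0.03. None was past 2-fold. Dnmt3a, the de novo enzyme, was at 6.82 RPKM in GO1 and 6.85 RPKM in GO2, and Dnmt3l, its cofactor, at 8.48 RPKM in GO1 and 14.5 RPKM in GO2 (0.75). The 5 genes of the TET and base excision list all lay below 0, with a median of -0.38 and none past 2-fold, with Tet3 at 47.8 RPKM in GO1 and 37.2 RPKM in GO2 and Dppa3, which is known to protect methylation in the zygote, at a change of -0.27.

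Of 12 H3K4 methyltransferases and demethylases compared, 1 was past 2-fold. This was the gene listed as Mll2 (chromosome 15, 98831669 to 98871183, minus strand), an H3K4 methyltransferase, at 2.87 RPKM in GO1 and 1.01 RPKM in GO2 (7221 and 4826 reads, log2 change -1.44). From NGOs to FGOs it did not fall, at 1.01 and 1.25 RPKM. The 31 Polycomb and H3K27 demethylase genes compared had a median of -0.07 and the 30 variant histones and histone chaperones a median of -0.14. An H3K9 list, which held demethylases and heterochromatin proteins beside the methyltransferases, had a median of -0.14 over 12 genes. None was past 2-fold in any of these lists. Of 29 imprinted genes compared, 2 were at least 2-fold higher in GO1, against 0.827 % of all genes, Mcts2 (1.16 and 0.423 RPKM) and Plagl1 (1.46 and 0.627 RPKM), and the median was -0.09.

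Other genes with the largest falls came from varied functions. Maged1, an X-linked MAGE family gene, was at 10.2 RPKM in GO1 and 4.13 RPKM in GO2 (-1.305), Rhox1, a homeobox gene of the X-linked reproductive cluster, at 3.11 RPKM in GO1 and 1.25 RPKM in GO2 (-1.26), and Hmgn5, an X-linked nucleosome-binding protein, at 1.73 RPKM in GO1 and 0.593 RPKM in GO2 (-1.42). On the X chromosome lay 7 of the 81 genes higher in GO1, 10 of the 181 higher in GO2 and 320 of the 9793 compared. Abi3bp, an extracellular matrix protein gene, was at 9.88 RPKM in GO1 and 3.95 RPKM in GO2 (-1.32), and Pfkfb3, which makes the activator of phosphofructokinase, at 3.82 RPKM in GO1 and 1.58 RPKM in GO2 (-1.24). The 13 glycolysis enzymes compared had a median of 0.11, with 11 above 0 and none past 2-fold. Among predicted loci the largest falls were Gm12238, which had the largest of all at 3.37 RPKM in GO1 and 0.234 RPKM in GO2 but only 53 and 7 reads, the RIKEN clone B930036N10Rik (3.83 and 0.818 RPKM) and Gm10222 (183 and 54.5 RPKM).

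The genes with the largest rises were at low levels and of varied functions, transporters and receptors among them. Slc6a15, a transporter of neutral amino acids (chromosome 10, 103367808 to 103419378, plus strand), was at 0.539 RPKM in GO1 and 3.06 RPKM in GO2 (95 % counting intervals 0.474 to 0.6103 and 2.94 to 3.17), a log2 change of 2.29. Of 89 solute carriers outside the families listed separately, 4 were at least 2-fold higher in GO2 and none in GO1, against 1.85 % and 0.827 % of all genes compared. The others were Slc10a4 (0.658 and 1.65 RPKM), Slc15a5 (0.524 and 1.27 RPKM) and the vesicular monoamine transporter Slc18a2 (1.02 and 2.196 RPKM). Slc6a15, Slc10a4 and Slc15a5 were under 1 RPKM in GO1 and so entered the comparison only through GO2. The list's median was 0.11.

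Steap4, a metalloreductase that reduces iron and copper (chromosome 5, 7960472 to 7982213, plus strand), had one of the highest levels among the large rises, at 2.004 RPKM in GO1 and 9.18 RPKM in GO2 (95 % counting intervals 1.87 to 2.15 and 8.96 to 9.396), a log2 change of 2.12. In NGOs it was at 0.187 RPKM and in FGOs at 12.1 RPKM. Receptors among the largest rises were Htr5a, a serotonin receptor, at 0.359 RPKM in GO1 and 1.99 RPKM in GO2 (2.17), Olfr288, an olfactory receptor gene, at 0.301 RPKM in GO1 and 1.76 RPKM in GO2 (2.19), and Gfra1, the co-receptor for the neurotrophic factor GDNF, at 0.253 RPKM in GO1 and 1.24 RPKM in GO2 (1.900). Of the other 7 olfactory receptor genes compared, none was past 2-fold. Stk32c, a protein kinase gene, was at 0.4899 RPKM in GO1 and 2.47 RPKM in GO2 (2.104), and Cmtm8, of the MARVEL membrane protein family, at 0.882 RPKM in GO1 and 3.78 RPKM in GO2 (1.97). Stk32c and Gfra1 each overlap another listed gene and may share its reads.

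**Figure D4:**
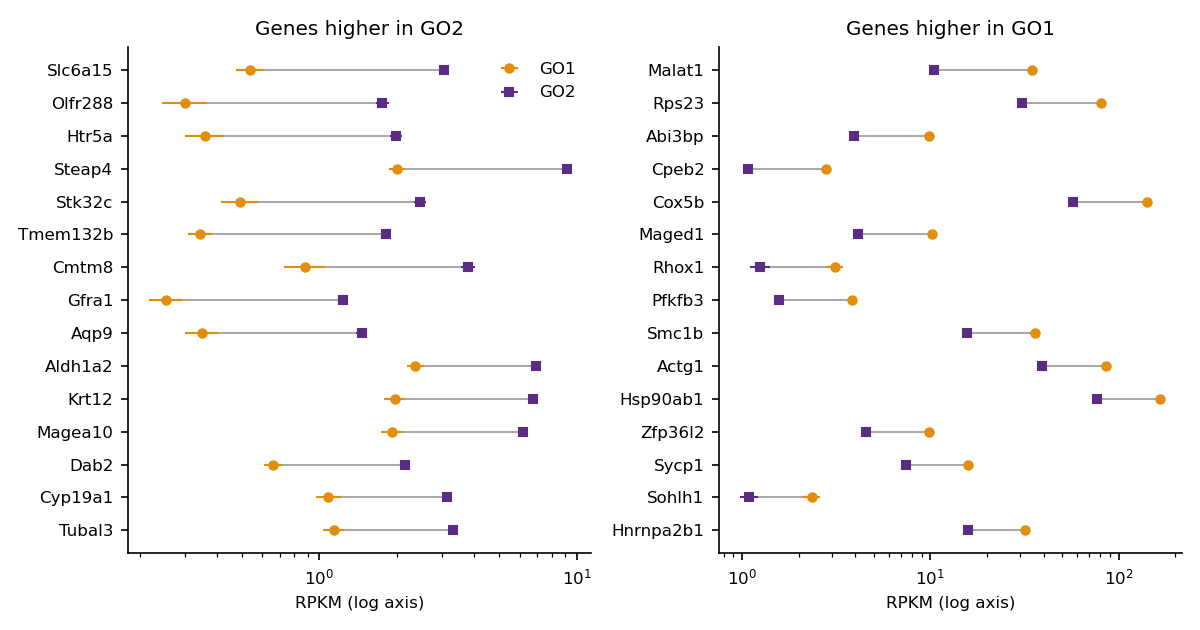
Level in GO1 (orange circles) and GO2 (purple squares) of 15 genes at least 2-fold higher in GO2 and 15 at least 2-fold higher in GO1, in RPKM on a log axis, with 95 % counting intervals (1 library each). The genes on the left lie between 0.253 RPKM (Gfra1 in GO1) and 9.18 RPKM (Steap4 in GO2), and those on the right reach 166 RPKM (Hsp90ab1 in GO1).

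Some genes that were higher in GO2 lay next to each other, counted among the genes compared and so with any other listed gene between them left out. Aqp9, an aquaglyceroporin (chromosome 9, 71110659 to 71168682, minus strand), was at 0.348 RPKM in GO1 and 1.46 RPKM in GO2 (1.78), and its neighbour Aldh1a2, which makes retinoic acid (chromosome 9, 71215789 to 71296243, plus strand), at 2.36 RPKM in GO1 and 6.92 RPKM in GO2 (1.49). Havcr1 (0.597 and 1.86 RPKM) and Timd4 (2.25 and 5.03 RPKM), both phosphatidylserine receptors, are neighbours on chromosome 11. On the X chromosome Magea10 (1.91 and 6.21 RPKM) and Cnga2 were neighbours and both called. In all 17 of the 181 genes (9.39 %) were next to another gene higher in GO2, against 3.64 % of all genes compared, and 5 of the 17 were histone genes on chromosome 13. Among genes higher in GO1 17 of 81 were next to another such gene, 11 of them mitochondrial, against 1.56 % of all genes compared. Of 9 pairs higher in GO2 1 overlapped, and of 12 pairs higher in GO1 4 did, so that these may share reads. These pairs were singled out after their values were seen.

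Cyp19a1, the aromatase that makes oestrogen in granulosa cells, was at 1.08 RPKM in GO1 and 3.13 RPKM in GO2 (1.43), and at 0.518 RPKM in NGOs and 6.08 RPKM in FGOs. It and Slc18a2 were the 2 genes at least 2-fold higher in GO2 of 5 compared in a wider list of 26 granulosa genes. Over all genes compared this share was 1.85 %. All 5 lay above 0, with a median of 0.64, and the list's summed level was 34.14 RPKM in GO1 and 40.81 RPKM in GO2. Most of that sum came from genes other than Cyp19a1 and Slc18a2. The granulosa genes not compared were under 1 RPKM in both libraries, among them Foxl2 at 1 and 7 reads, Fshr at 0.167 and 0.171 RPKM and Inha at 0.2299 and 0.258 RPKM. Of 8 blood and macrophage markers in the table, 6 were under 0.1 RPKM in both libraries and C1qb alone was past 2-fold, at 1.26 RPKM in GO1 and 2.89 RPKM in GO2. Of 7 endothelial and mural markers 5 were under 0.1 RPKM, but Pecam1 was at 5.15 and 8.28 RPKM and Tek at 2.04 and 2.79 RPKM, while Cdh5 was at 0.00198 and 0 RPKM. Of 11 theca and stroma markers 9 were under 0.1 RPKM in both libraries and none reached 1 RPKM.

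The calls were also counted by gene type, with no test of the differences. Of 513 predicted loci compared, 36 were at least 2-fold higher in GO2 and 12 in GO1, against 1.85 % and 0.827 % of all genes compared. Of all 181 genes higher in GO2, 110 entered the comparison through GO2 alone. Of 97 long intergenic non-coding RNAs compared, 11 (11.3 %) were at least 2-fold higher in GO2 and 3 (3.09 %) in GO1. Of 74 antisense RNAs, 7 (9.46 %) and 2 were, and of 8410 protein-coding genes 132 (1.57 %) and 58 (0.69 %). Of 127 processed pseudogenes none was higher in GO2 and 2 (1.57 %) were higher in GO1. The largest rise of all was Gm14641, at 0.1396 RPKM in GO1 and 2.41 RPKM in GO2 with 8 and 263 reads, followed by Gm12264 (0.0789 and 1.17 RPKM) and Gm13387 at 0.279 RPKM in GO1 and 2.12 RPKM in GO2 (95 % counting intervals 0.228 to 0.339 and 2.01 to 2.23). Gm13387 had 102 and 1471 reads, the best supported of the 3. In NGOs and FGOs it was at 0.0439 and 0.08704 RPKM, far under its level in GO2.

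The promoters of Gm13387, the largest rise with an entry, and of Steap4, a well-measured coding gene chosen after its values were seen, are shown from RefSeq (GRCm38.p6). Capitals mark the letters of an E-box (CATCTG), an ETS site (CCGGAAG) or a TATA box on either strand. They lie at chr2:25145438-25145737, minus strand, for Gm13387, and at chr5:7960222-7960521, plus strand, for Steap4.
Gm13387: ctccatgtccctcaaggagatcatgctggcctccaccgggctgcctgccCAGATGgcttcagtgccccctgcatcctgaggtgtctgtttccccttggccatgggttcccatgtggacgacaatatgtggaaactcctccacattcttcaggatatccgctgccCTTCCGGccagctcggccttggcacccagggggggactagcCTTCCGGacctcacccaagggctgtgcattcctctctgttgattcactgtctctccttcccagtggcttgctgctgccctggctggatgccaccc
Steap4: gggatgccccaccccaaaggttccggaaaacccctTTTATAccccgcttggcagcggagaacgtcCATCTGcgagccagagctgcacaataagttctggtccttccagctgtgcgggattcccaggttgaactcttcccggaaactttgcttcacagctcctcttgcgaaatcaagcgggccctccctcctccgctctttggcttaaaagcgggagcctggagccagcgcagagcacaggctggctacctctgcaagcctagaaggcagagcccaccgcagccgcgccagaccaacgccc

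Gm13387 held 1 E-box and 2 ETS letter matches, and Steap4 a reversed TATA match far from the start and 1 E-box. Across the comparison, a promoter in the same reference was found for 7454 of the 9793 genes, and for 119 of the genes higher in GO2 (139 promoters) and 38 of those higher in GO1 (41 promoters). The GC box, spelled GGGCGG, was found in 38.1 % of promoters of genes higher in GO2 and 43.9 % of those higher in GO1, against 62.8 % over all genes compared and 35.7 % over all 32851 promoters in the reference. ETS letters were found in 5.76 % and 12.2 %, against 19.6 % and 8.86 %. TATA letters were found in 18.7 % and 9.76 %, against 7.27 % and 13.6 %. The genes higher in GO2 included 12 clustered histone genes, some with the TATA letters, and 110 of the 181 entered through GO2 alone. The part of either in the promoter shares was not tested.

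The median number of CpGs per promoter was 8 for genes higher in GO2 and 16 for genes higher in GO1, against 21 over all genes compared and 7 over all promoters. The NOBOX element (TAATTG or TAATTA), which the oocyte homeobox factor binds, was found in 14.4 % and 9.76 %, against 7.68 % and 12.4 %. The E-box letters CATCTG were found in 14.4 % and 22.0 %, against 10.5 % and 17.2 %. The CCAAT box was found in 38.8 % of promoters of genes higher in GO2, against 39.3 % of genes compared. For the GC box and the number of CpGs the genes higher in GO2 lay nearer to all promoters than to the genes compared. With 41 promoters the shares of the genes higher in GO1 rest on few promoters.

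In the NGO and FGO libraries, which share no library with the pair and did not choose the genes, most called genes differed in the same direction. FGO was above NGO for 166 of the 181 genes higher in GO2 (91.7 %), against 49.6 % of all genes compared, and FGO was below NGO for 72 of the 81 genes higher in GO1 (88.9 %), against 50.4 %. By at least 2-fold it was so for 141 (77.9 %) and 49 (60.5 %), against 11.5 % and 9.37 %. The median change from NGOs to FGOs was 2.78 and -1.38 (log2). These libraries were made by the other method, and each stage again had 1 library.

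**Figure D5:**
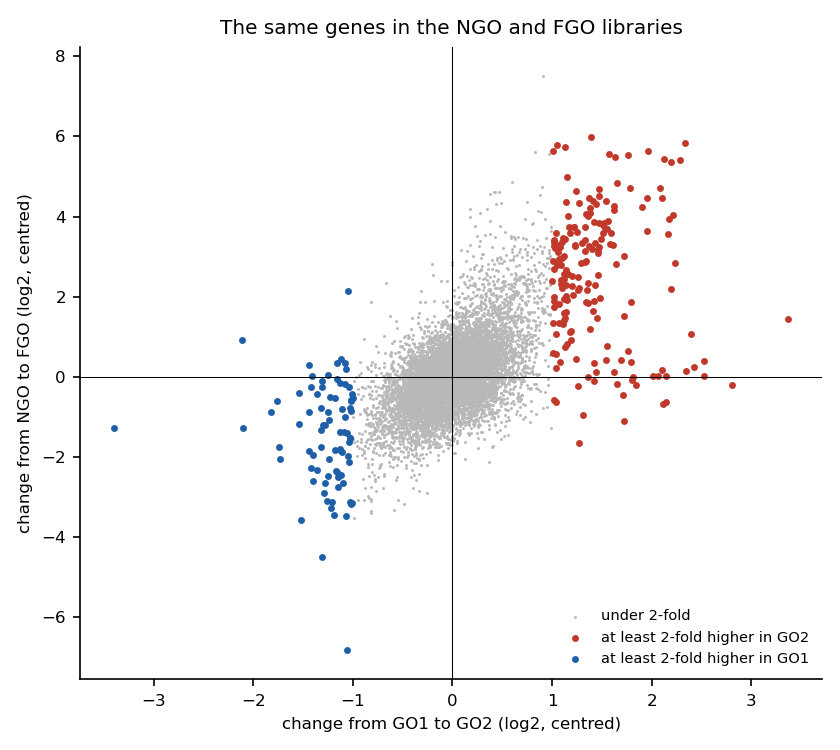
Change from NGOs to FGOs against the change from GO1 to GO2 (both log2, centred), with 1 point per gene compared; red and blue points are genes at least 2-fold higher in GO2 and in GO1. Most red points (166 of 181) lie above 0 and most blue points (72 of 81) below 0 on the vertical axis, and a row of red points near 0 holds genes scarce in both NGOs and FGOs.

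Slc6a15, Cmtm8 and Magea10 had wide gaps between the outer stages. Slc6a15 was at 0.0844 RPKM in NGOs and 7.59 RPKM in FGOs, Cmtm8 at 0.05099 RPKM in NGOs and 7.35 RPKM in FGOs and Magea10 at 0.318 RPKM in NGOs and 18.4 RPKM in FGOs. For each of them GO1 and GO2 lay between the NGO and FGO levels. Some called genes were scarce at both outer stages: 23 of the 181 genes higher in GO2 (12.7 %) and 7 of the 81 higher in GO1 (8.64 %) were under 0.5 RPKM in both NGOs and FGOs, against 0.827 % of all genes compared. Among genes at 0.5 RPKM or more in NGOs or FGOs, FGO was above NGO for 148 of 158 genes higher in GO2 and below NGO for 68 of 74 genes higher in GO1. Of the 23 scarce genes, 18 overlapped another listed gene and 21 had a predicted or clone name. As an example, Gm20697 was at 8.25 RPKM in GO1 and 27.8 RPKM in GO2 but at 0.0502 RPKM in NGOs and 0.325 RPKM in FGOs. mt-Nd6 went the other way, with 11.3 RPKM in NGOs and 48.9 RPKM in FGOs, although it was lower in GO2.

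Length and level moved with the calls. In the quartile of genes with the shortest exons 3.88 % were higher in GO2 and 1.96 % in GO1, and in the quartile with the longest 0.531 % and 0.327 %. In the quartile with the lowest mean RPKM 5.31 % were higher in GO2 and 1.43 % in GO1, and in the quartile with the highest 0.408 % and 1.06 %. A gene entered at 1 RPKM in either library, so one with a mean under 1 RPKM had to differ between them. This rule raises the shares called in the lowest quartile, by an amount that was not tested. The median exon length was 1926 bases for genes higher in GO2 and 1378 bases for genes higher in GO1, against 3465 bases over all genes compared. For 10133 of the listed genes with reads, the length was the smallest that made the reads whole, which may be too short. Another listed gene overlapped 30.4 % of the genes higher in GO2 and 30.9 % of those higher in GO1, against 28.7 % of all. With the reads of GO2 thinned at random to the GO1 total, 179 genes were higher in GO2 and 83 in GO1. The part of exon length and of overlap in these calls was not tested.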

How the data were processed

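Values of NGO, GO1, GO2 and FGO libraries (1 each, total RNA, ribosomal RNA depleted) were analysed. The authors trimmed 100-bp paired-end reads with Trim Galore 0.2.8, mapped them to GRCm38 with TopHat2 2.0.9 and deposited RPKM values for 25587 genes, although the deposited name speaks of read counts. The program, gene annotation and strand setting behind the RPKM were not given in the sources used here, so that antisense partners and close paralogs may share reads. No column of the table was left unmapped (0 columns).

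Reads were recovered from RPKM by finding the library total and exon length that made them whole, with at least 99.5 % of the values of single-exon genes within 0.01 of a whole read (or within rounding of the deposited value, for large counts) in each library, using GENCODE M21 lengths where they matched. For 10133 genes no annotated length matched, and the smallest length that made the reads of all libraries whole was taken. Such a length may be too short, with too few reads recovered. Intervals are 95 % Poisson intervals on the recovered reads. They cover counting error at most, since several reads can stem from the same molecule when no molecular identifiers are used. The totals behind the RPKM were also larger than the uniquely mapped reads that the paper lists for these libraries. A read pair was thus probably counted more than once, and the intervals are likely too narrow. The change was log2((GO2 + 0.1)/(GO1 + 0.1)), which understates the change of scarce genes, less its mean after trimming 30 % from each end. A gene was called at 2-fold or more. With 1 library per group no test between stages was possible. The calculation was tested on simulated reads. The software was Python 3.11.15 (numpy 2.4.6; pandas 2.3.3; scipy 1.17.1) and, for figures, matplotlib 3.10.9.

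The comparison and its 123 gene lists, 111 of which had at least 5 members compared, were chosen with earlier results of these data known, and the lists are not independent evidence. Genes named were the 15 largest rises and falls with at least 100 reads in the higher library (of predicted loci and clones only the 5 largest each way), the 10 highest in each library, the first 2 and the up to 4 most changed members of a list in each direction, and cell markers. Others were named after their values were seen, among them further H4 histones and the pairs of neighbouring genes. Promoters were matched to RefSeq (GRCm38.p6) by symbol or synonym on the same chromosome and strand. They had to overlap the listed gene or lie within 1000 bases of either end, so promoters inside a gene were included. Genes on 1 chromosome were counted but not named, and expression outside the reference genes was not analysed here. Alternatives changed the centring, pseudocount, filter, threshold, reads and genes left out. Those without mitochondrial or clustered histone genes were added after seeing the data.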

Additional observations from a re-analysis of the deposited data

How the results depend on the processing

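The calls at 2-fold, 181 genes higher in GO2 and 81 higher in GO1, had no replicate behind them, and the alternatives show only how they depend on the processing. Of 34 counts under other settings, 22 lay within 1.5 times of these. The count higher in GO2 and that higher in GO1 were 53 and 34 with a pseudocount of 1 RPKM, 42 and 37 with a filter of 5 RPKM, 375 and 152 with no filter, 651 and 488 at 1.5-fold, and 24 and 3 at 4-fold. On recovered reads with at least 20 in the pair they were 1048 and 487, and 178 and 81 of the genes called at 2-fold were also called there. A pseudocount of 1 RPKM draws genes near that level under 2-fold by its own construction, and the last setting and the one with no filter compare more genes. With no centring they were 186 and 76, with values scaled to the same sum 207 and 64, with GO2 thinned to the GO1 total 179 and 83, and without genes that overlap another 126 and 56. Without mitochondrial genes 70 were higher in GO1, and without clustered histone genes 169 and 79 were called.

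From NGOs to FGOs, the share in the same direction was 77.9 % of genes higher in GO2 and 60.5 % of genes higher in GO1 where at least 2-fold was required, and 66.7 % of the 3 genes higher in GO1 by 4-fold. The 324 list medians recomputed stayed within the 95 % binomial interval of the median over the list's genes, and moved by up to 0.29 with a pseudocount of 1 RPKM. That interval treats a list's genes as separate draws and spans all members of the smallest lists. A recomputed median could hardly leave it, so staying within it is no test of stability. For 9 combinations of list and setting fewer than 5 genes were left. Of 60 values of single genes recomputed, 54 stayed past 2-fold and none turned. The 6 that did not, all with a pseudocount of 1 RPKM, included Mll2 (-0.96), Hmgn5 (-0.79) and Fam25c (0.91).

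No paired analysis was possible because each stage had 1 library. A gene with 1 kbp of exons reached 3 reads at 0.0237 RPKM in GO1 and at 0.0124 RPKM in GO2. A gene of that length under these levels rested on fewer than 3 reads, and a longer gene reached 3 reads at a lower level.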
